A study of Mus musculus with 9 samples.

Results

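Mitochondrial DNA carries its own small set of genes, and their transcripts were described here in the intestinal tract of mice with dextran sulfate sodium (DSS) colitis on diets lacking methionine, tryptophan or niacin. The members are the 37 rows, of 55468 in the table, whose gene name starts with mt-: 13 mRNA genes, 2 rRNA genes and 22 tRNA genes. Levels are FPKM, fragments scaled to transcript length and to the mapped fragments of the library, as the authors deposited them.

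At day 28, tissue came from mice on a methionine-deficient diet (1K), on one without tryptophan and niacin (2K), on one lacking all 3 nutrients (3K) and on a normal diet (R). At day 33 it came from mice that had gone back to normal food at day 28 after each of these diets (named 1KR, 2KR, 3KR) and from mice on normal food throughout (RR). Those 8 conditions had DSS, a sulfated polysaccharide that damages the intestinal lining, in the drinking water from day 18. The control without DSS (C) ate the normal diet with collection at day 34. There is 1 library per condition, so no difference has a replicate check and no p-value is given. Strain and age are not in the labels, nor is whether a library pools animals. The tissue is named only as intestinal tract, and the part of the gut is not stated.

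Respiration in the inner mitochondrial membrane is carried by complexes built from subunits of both genomes. All protein genes of mitochondrial DNA encode core subunits of complexes I, III, IV and V, and the rRNA and tRNA genes serve the mitochondrial ribosome that translates them. The DNA is transcribed on both strands into long precursors, which are cut at the tRNAs that lie between the other genes, and most of the mRNAs then receive a poly(A) tail. The absorptive epithelium of the gut is rich in mitochondria.

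On GRCm38, 12 of the 13 mRNA genes lie on the plus strand and 1, mt-Nd6, on the minus strand, as do 8 of the 22 tRNA genes. Of the mRNAs, 7 were at high levels in every library, and 6 rows that follow each other on the plus strand, from mt-Co2 to mt-Nd4l (chrM:7013-10173), were at low levels in every library. The 6 rows hold mt-Co2 and mt-Co3 (complex IV), mt-Atp8 and mt-Atp6 (complex V), and mt-Nd3 and mt-Nd4l (complex I). This block was marked out after its values were seen. Its highest value was 104.9 FPKM, for mt-Atp8 in 3KR, and the lowest value of any mRNA outside it was 649.6 FPKM, for mt-Nd6 in 1KR.

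The same stretch of mitochondrial DNA has a near-identical copy in nuclear DNA on chromosome 1, annotated as 7 unprocessed pseudogenes on the minus strand, the outermost being Gm28439 (which starts at 24611535) and Gm29216 (which ends at 24616197). Stretches from this copy are shown because a fragment from an identical stretch fits both places. A run of 60 bases of mt-Atp6 (chrM:8227-8286, plus strand) and the matching run of Gm10925 (chr1:24614292-24614351, minus strand) are the same, with no base in capitals.
mt-Atp6: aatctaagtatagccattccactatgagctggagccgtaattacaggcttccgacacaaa
Gm10925: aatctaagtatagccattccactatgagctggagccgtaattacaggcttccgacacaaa
The first 60 bases of mt-Nd3 (chrM:9459-9518, plus strand) and Gm28438 (chr1:24613060-24613119, minus strand) differ at 1 base, in capitals, which is T3C counted from the 5′ end of mt-Nd3.
mt-Nd3: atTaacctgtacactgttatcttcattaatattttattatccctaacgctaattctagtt
Gm28438: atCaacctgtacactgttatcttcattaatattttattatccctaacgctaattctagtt
These transcript sequences, and the others below, were taken from GENCODE M21.

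Over their whole aligned length, mt-Co2 and Gm28661 were identical at 681 of 681 bases, mt-Atp6 and Gm10925 at 678 of 678, mt-Co3 and Gm28437 at 783 of 783, and mt-Nd4l and Gm10222 at 294 of 294. mt-Nd3 and Gm28438 matched at 344 of 345 bases. Of all 50-base stretches of a transcript, 100% in mt-Co2, 99.9% in mt-Co3, 99.5% in mt-Atp6, 98.8% in mt-Nd4l and 98.0% in mt-Nd3 also occur in an annotated nuclear transcript. The flanking genes are covered in part, with 51.1% in mt-Co1 and 62.2% in mt-Nd4. The value was 8.19% in mt-Nd2, 7.61% in mt-Nd5 and 0% in mt-Nd1, mt-Nd6 and mt-Cytb.

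mt-Atp8 is the exception in the block, because 0% of its 50-base stretches occur in an annotated nuclear transcript. It lies between mt-Co2 and mt-Atp6, whose copies are both annotated, and no genome sequence was used to look between those copies. Its last 43 bases also belong to mt-Atp6, as its 3′ end shows, with the bases of both genes in capitals (bases 125 to 204, chrM:7890-7969, plus strand).
mt-Atp8: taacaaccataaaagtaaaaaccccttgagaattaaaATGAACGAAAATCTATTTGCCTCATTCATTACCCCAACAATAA

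Inside the block, the pseudogene rows were at low levels like the mitochondrial rows they copy. mt-Atp6 was between 30.6 FPKM (2K) and 84.6 FPKM (1K), and its copy Gm10925 between 36.2 FPKM and 94.0 FPKM, a ratio of 0.839 (3K) to 0.992 (2KR) over the 9 libraries. For mt-Co2 and Gm28661 the ratio ran from 0.970 (C) to 1.20 (2K), for mt-Co3 and Gm28437 from 0.579 to 0.688, for mt-Nd4l and Gm10222 from 0.481 to 0.726 and for mt-Nd3 and Gm28438 from 0.490 to 0.961. Adding each copy to its gene in the block gave at most 181.2 FPKM, for mt-Co3 in 1K, which is still under the lowest mRNA outside the block. How fragments with more than 1 place in the genome were treated was not given in the sources used here, and the part of shared sequence in the low levels was not tested. The 5 rows with a full copy are therefore reported as uncertain, and so is the level of mt-Atp8 with its overlap. mt-Co1 was at 55.7 to 63.6 times its partial copy Gm29216, and mt-Nd4 at 64.3 to 107.8 times its partial copy Gm28439. The part of shared sequence in the levels of mt-Co1 and mt-Nd4 was not tested either.

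**Figure D1:**
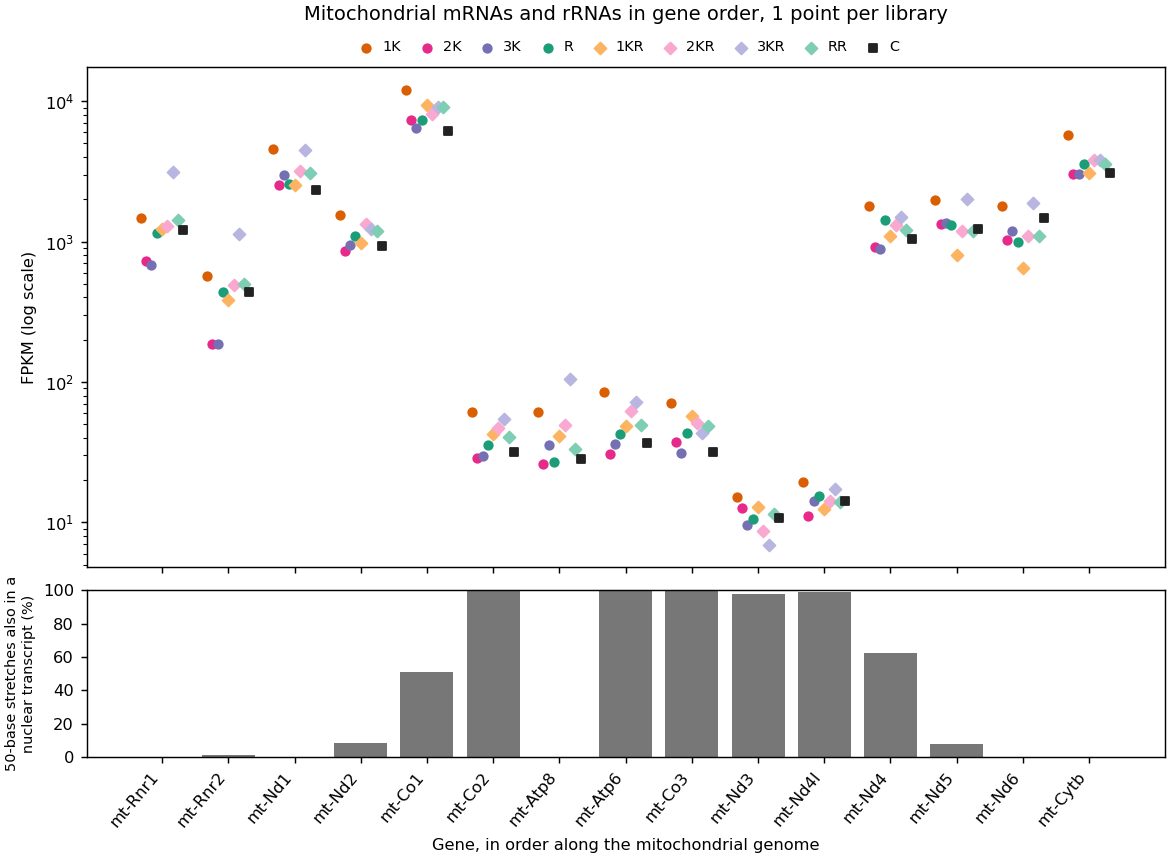
FPKM on a log axis for the 2 rRNAs and 13 mRNAs in genome order, 1 point per library (upper panel), and the percentage of each transcript's 50-base stretches that also occur in an annotated nuclear transcript (lower panel). The 6 genes from mt-Co2 to mt-Nd4l lie at or under 104.9 FPKM in all 9 libraries, and 5 of them share nearly all of their stretches with a nuclear transcript.

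Outside the block, mt-Co1, the catalytic subunit of cytochrome c oxidase, was the most abundant mitochondrial mRNA in all 9 libraries. It was at 11987 FPKM in 1K, 7368 FPKM in 2K, 6464 FPKM in 3K and 7391 FPKM in R, at 9360 FPKM in 1KR, 8066 FPKM in 2KR, 9035 FPKM in 3KR and 9073 FPKM in RR, and at 6102 FPKM in C. mt-Cytb, the only mitochondrial subunit of complex III, ranked second in 8 libraries, 3KR being the exception, with 3052 FPKM (2K) to 5713 FPKM (1K). mt-Nd1, a membrane subunit of complex I, came next in those 8 libraries and ranked second in 3KR, with 2326 FPKM (C) to 4538 FPKM (1K). The remaining 4 mRNAs, all complex I subunits, overlapped each other in level. mt-Nd2 was between 852.3 FPKM (2K) and 1553 FPKM (1K), mt-Nd4 between 879.9 FPKM (3K) and 1787 FPKM (1K), mt-Nd5 between 798.4 FPKM (1KR) and 2003 FPKM (3KR), and mt-Nd6 between 649.6 FPKM (1KR) and 1873 FPKM (3KR).

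Over the 7 mRNAs outside the block, the highest library was between 1.82 and 2.88 times the lowest, with a median of 1.96, against a median of 2.66 over 16608 genes averaging at least 1 FPKM with no library at 0. Leaving out 2K, 3K and 3KR, which stand apart as given below, the range was 1.67 to 2.77 with a median of 1.95, against 1.87 over those genes. Together the 13 mRNAs held 3.67% of the summed FPKM in 1K, 2.26% in 2K, 2.58% in 3K and 3.10% in R. They held 2.63% in 1KR, 2.87% in 2KR, 2.49% in 3KR and 2.92% in RR, and 2.73% in C. The low share of 3KR goes with its small RNAs, which made up 49.7% of the summed FPKM of that library and between 14.1% and 25.6% in the other 8. Over rows other than small RNAs and mitochondrial rRNA and tRNA genes, the 13 mRNAs held 4.99% in 3KR, the highest of the 9, followed by 4.49% in 1K. On that measure 2K was the lowest, at 2.63%, against 3.99% in R.

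Library facts that touch these values are given here. The estimated number of fragments, read from the steps between the lowest values, was between 12500000 (3KR) and 27100000 (2KR), which puts about 174484 to 383848 fragments behind mt-Co1 and about 30.3 (3KR) to 120 behind mt-Nd3. All 12 pancreatic acinar markers had at least 1 FPKM in 2K and 3K, where the list made up 5.33% (2K) and 7.39% (3K) of summed FPKM, against 3 to 8 markers and at most 0.0158% in the other 7 libraries. All 8 stomach markers did so in 2K (2.19%) and none (0) elsewhere, where 7 of them, such as Tff1 and Pgc, were listed at 0 in at least 1 library. Liver genes made up 5.62% in 2K and no more than 0.0560% in any other library, with 3 to 10 of its 10 markers at or above 1 FPKM. All 10 epithelial markers passed 1 FPKM in every library, but their summed share was 2.02% in 1K, 0.298% in 2K, 0.571% in 3K and 1.43% in R, and 1.79% in 1KR, 1.69% in 2KR, 0.561% in 3KR and 1.55% in RR, against 1.19% in C. Smooth muscle genes held 0.0595% (2K) to 0.199% (R), but their summed FPKM was highest in 3KR (1773 FPKM) and next in R (1188 FPKM). Adipocyte genes held 0.00407% (3KR) to 0.0207% (3K) and skeletal and cardiac muscle genes 0.00109% (3K) to 0.00270% (C). In bulk tissue, fewer cells of a type and less RNA per cell cannot be told apart.

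The tRNA genes, which read the mitochondrial code, were nearly all listed at 0. Of 198 values, from 22 genes in 9 libraries, 4 were above 0. mt-Tm, the methionine tRNA, was at 66.3 FPKM in 1K and 63.0 FPKM in 2K, mt-Tl1, a leucine tRNA, at 47.6 FPKM in 1K, and mt-Tc, the cysteine tRNA, at 66.7 FPKM in C. The other 19 genes were at 0 in every library, the tryptophan tRNA mt-Tw among them. The 3 tRNAs with a value are shown with their anticodons in capitals, found as the 3 bases in the middle of a 7-base loop closed by a 5-base stem. mt-Tm lies at chrM:3845-3913 and mt-Tl1 at chrM:2676-2750 on the plus strand, and mt-Tc at chrM:5192-5257 on the minus strand.
mt-Tm: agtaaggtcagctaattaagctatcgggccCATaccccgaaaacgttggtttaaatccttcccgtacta
mt-Tl1: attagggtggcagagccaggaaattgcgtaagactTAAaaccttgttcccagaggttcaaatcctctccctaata
mt-Tc: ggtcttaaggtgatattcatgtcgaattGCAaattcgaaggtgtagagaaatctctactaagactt
The tRNAs are 59 to 75 bases long, and nearly all other rows of that length were also at 0: of 808 other rows of 59 to 75 bases, 4 (0.495%) were above 0 in any library. A value of 0 here is therefore no measure of tRNA abundance, FPKM of so short a transcript depends on the effective length used, and no fold between libraries is given.

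Differences between libraries are given below on the scale log2(FPKM + 0.5), for rows with at least 1 FPKM in either library, and rows at least 2-fold apart are counted. Such counts take both directions together. The share of all genes at least 2-fold apart in the same pair is given with the mRNA counts of each comparison and beside most counts of other groups. It is the share as deposited, and none is given for counts after rescaling. Where a group of genes is said to hold rows at least 2-fold higher or lower as deposited, it held 0 the other way. The comparisons of 1K, 2K and 3K share R, those of 1KR, 2KR and 3KR share RR, and those of R and RR share C. Another scaling shifts all genes of a pair together: rescaling to the rows that are neither small RNAs nor mitochondrial moved the median of all genes by -0.47 in 1K over R, -0.50 in 2K over R, -0.28 in 3K over R and -0.23 in RR over C. Median-of-ratios scaling moved it by -0.20 in 1K over R, -0.10 in RR over C and 0.11 in 3KR over RR. The mRNA medians are therefore also given relative to the median of all genes.

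**Figure D2:**
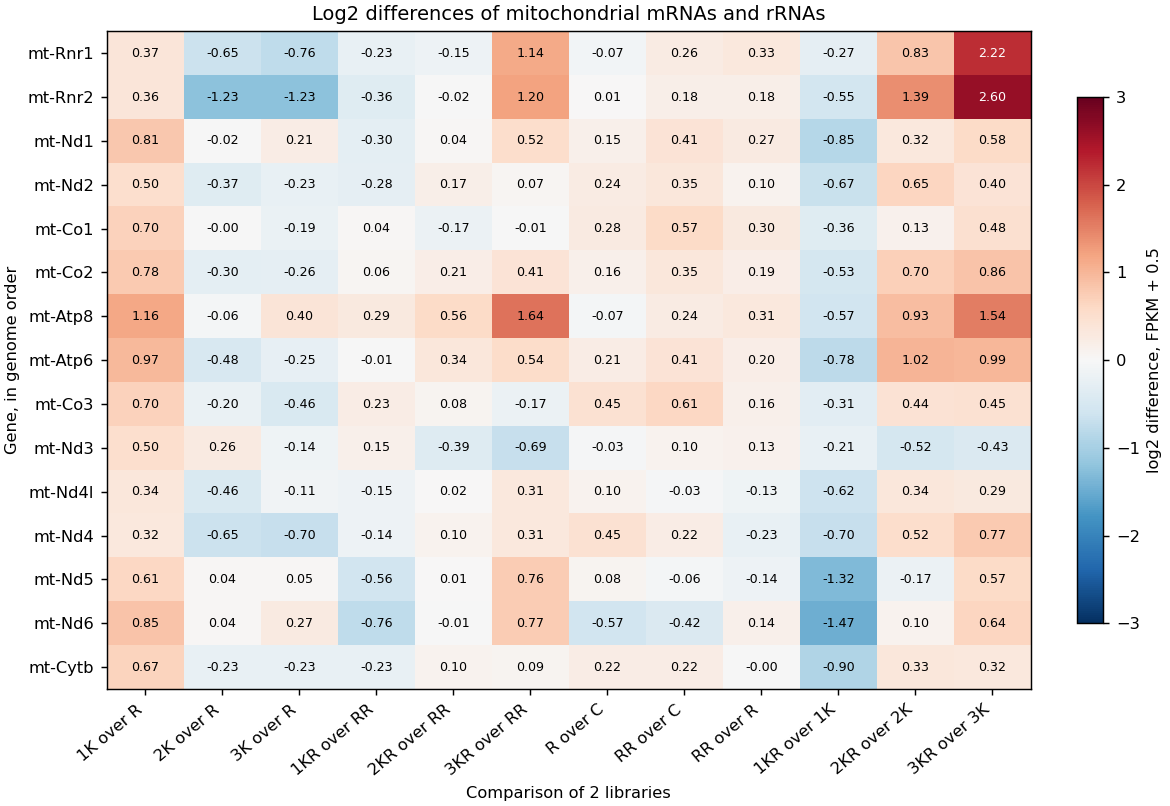
Log2 differences in FPKM + 0.5 of the 2 rRNAs and 13 mRNAs (rows, in genome order) in 12 comparisons of 2 libraries (columns), red for higher in the library named first. All 13 mRNAs are higher in 1K than in R and lower in 1KR than in 1K, and the deepest colours are those of both rRNAs in 3KR over 3K.

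Methionine deficiency at day 28 (1K over R) was the comparison with R in which every mitochondrial mRNA was higher as deposited, and after rescaling to other rows 10 of 13 were. The median log2 difference was 0.70, or 0.66 relative to all genes, and the range was 0.32 (mt-Nd4) to 1.16 (mt-Atp8). Only mt-Atp8, a small subunit of the ATP synthase, was at least 2-fold apart, at 60.9 FPKM in 1K and 27.0 FPKM in R, and after either rescaling 0 of 13 were. The level of mt-Atp8 is uncertain, as given above. In this pair 15.8% of 18165 genes were at least 2-fold apart, so the count of 1 of 13 is below that share. mt-Nd6 was at 1800 FPKM in 1K and 996.0 FPKM in R (0.85), mt-Nd1 at 4538 against 2579 FPKM (0.81) and mt-Co1 at 11987 against 7391 FPKM (0.70). The summed share of the epithelial markers was 2.02% in 1K and 1.43% in R. Of that list Epcam (481.7 against 570.4 FPKM) and Cdh1 (146.6 against 166.2 FPKM) were lower in 1K, and the others were higher. The part of the list in these values was not tested.

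The diet without tryptophan and niacin (2K over R) showed small differences in the mRNAs as deposited. The median was -0.20, with 3 of 13 higher and 10 lower, or -0.22 relative to all genes, and it came to -0.04 relative to all genes for the 7 mRNAs outside the block. None (0) was at least 2-fold apart as deposited, against 28.9% of 19035 genes. After rescaling to other rows all 13 were lower, between -0.23 (mt-Nd3) and -1.16 (mt-Nd4), and mt-Nd4 was at least 2-fold apart. As deposited, mt-Co1 was at 7368 FPKM in 2K and 7391 FPKM in R, mt-Nd1 at 2542 against 2579 FPKM and mt-Nd5 at 1341 against 1304 FPKM, each within 0.04 on the log2 scale. After that rescaling they differed by -0.52 (mt-Co1), -0.54 (mt-Nd1) and -0.48 (mt-Nd5). mt-Nd4, a proton-pumping subunit of complex I, was the lowest, at 911.6 FPKM in 2K and 1427 FPKM in R (-0.65). The 2K library holds acinar, stomach and liver transcripts in the shares given above, and their part in these values was not tested.

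Deficiency of all 3 nutrients (3K over R) had a median of -0.19, or -0.20 relative to all genes, with 4 of 13 mRNAs higher, 9 lower and 0 at least 2-fold apart, against 25.1% of 18873 genes. mt-Nd4 was again the lowest, at 879.9 FPKM in 3K and 1427 FPKM in R (-0.70). mt-Atp8 was the highest, at 35.7 FPKM in 3K and 27.0 FPKM in R (0.40). After rescaling to other rows every mRNA but mt-Atp8 (0.12) was lower. Both 1K and 3K diets lacked methionine, and the medians over R were 0.70 for 1K and -0.19 for 3K. In 3K the acinar genes held 7.39% of summed FPKM and the epithelial markers 0.571%, against 1.43% in R, and their part in these values was not tested.

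After return to the normal diet, the library of the methionine group (1KR over RR) had a median of -0.14, also relative to all genes, with 5 of 13 mRNAs higher, 8 lower and 0 at least 2-fold apart, against 5.99% of 17070 genes. Outside the block the median was -0.27 relative to all genes, and only mt-Co1 was higher. The lowest were mt-Nd6 and mt-Nd5, which adjoin on the genome. mt-Nd6 was at 649.6 FPKM in 1KR and 1101 FPKM in RR (-0.76), and mt-Nd5, a large membrane subunit of complex I, at 798.4 against 1181 FPKM (-0.56). These were the lowest values of both genes in the 9 libraries. mt-Co1, at 9360 FPKM in 1KR and 9073 FPKM in RR (0.04), did not share this. Against the library taken on the deficient diet (1KR over 1K), all 13 mRNAs were lower, with a median of -0.67, or -0.58 relative to all genes. Outside the block the median was -0.76 relative to all genes. mt-Nd6 (-1.47) and mt-Nd5 (-1.32) were the 2 at least 2-fold apart, against 14.4% of 17495 genes at least 2-fold apart.

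In the group returned from the diet without tryptophan and niacin (2KR over RR), no mRNA (0 of 13) was at least 2-fold apart, against 6.35% of 17035 genes, and the median was 0.08, or 0.12 relative to all genes. The range ran from -0.39 for mt-Nd3, at 8.73 FPKM in 2KR and 11.6 FPKM in RR, to 0.56 for mt-Atp8, at 49.7 against 33.4 FPKM, both in the block. Outside it, the 7 mRNAs lay between -0.17 (mt-Co1) and 0.17 (mt-Nd2). In 2KR over 2K, 11 of 13 were higher with a median of 0.34, or 0.44 relative to all genes. Only mt-Atp6, a proton channel subunit of the ATP synthase, was at least 2-fold apart, at 62.6 FPKM in 2KR and 30.6 FPKM in 2K. Of 18395 genes, 32.5% were at least 2-fold apart. In 2K, acinar genes held 5.33% of summed FPKM, stomach genes 2.19% and liver genes 5.62%. Epithelial markers held 0.298% in 2K and 1.69% in 2KR. The part of these lists in the values of 2KR over 2K was not tested.

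The library returned from the triple-deficient diet (3KR over RR) had 10 of 13 mRNAs higher, 3 lower and a median of 0.31, or 0.28 relative to all genes. Only mt-Atp8 was at least 2-fold apart, at 104.9 FPKM in 3KR and 33.4 FPKM in RR (1.64), against 21.1% of 18263 genes at least 2-fold apart. This row is 204 bases long and its level is uncertain, as given above. mt-Nd6 was at 1873 against 1101 FPKM (0.77), mt-Nd5 at 2003 against 1181 FPKM (0.76) and mt-Nd1 at 4458 against 3100 FPKM (0.52). mt-Co1 differed by -0.01 and mt-Cytb by 0.09. In 3KR over 3K, 12 of 13 were higher with a median of 0.57, or 0.56 relative to all genes, and mt-Nd3 was the one below 0 (-0.43), with about 30.3 fragments behind its value in 3KR. Here mt-Atp8, at 104.9 FPKM in 3KR and 35.7 FPKM in 3K (1.54), was the only mRNA at least 2-fold apart, against 25.1% of 18879 genes. Acinar genes held 7.39% of summed FPKM in 3K and 0.00366% in 3KR, and their part in the values of this pair was not tested.

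DSS on the normal diet was compared with the library without DSS, which was collected at day 34, so that collection day and DSS cannot be told apart. At day 28 (R over C) the median of the mRNAs was 0.16, or 0.14 relative to all genes, with 10 of 13 higher and 0 at least 2-fold apart, against 7.65% of 18222 genes. At day 33 (RR over C) it was 0.24, or 0.26 relative to all genes, with 10 of 13 higher as deposited, and after rescaling to other rows 6 were higher, with 0 at least 2-fold apart, against 12.5% of 18018 genes. mt-Nd6 had the lowest difference in both, at 996.0 FPKM in R (-0.57) and 1101 FPKM in RR (-0.42), against 1477 FPKM in C. mt-Co3 had the highest, at 43.3 FPKM in R (0.45) and 48.4 FPKM in RR (0.61), against 31.5 FPKM in C. Between the libraries of both days (RR over R) the median was 0.14 as deposited and -0.03 after rescaling to other rows, and 0.19 relative to all genes under both, with 0 of 13 at least 2-fold apart, against 10.7% of 18003 genes.

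Over all 9 libraries, the rRNAs of the mitochondrial ribosome spanned a wider range than the mRNAs. The highest library was 4.66 (mt-Rnr1) and 6.11 (mt-Rnr2) times the lowest, against at most 4.05 for an mRNA (mt-Atp8). Without 2K, 3K and 3KR the rRNA range was narrower than that of the mRNAs, at 1.29 (mt-Rnr1) and 1.46 (mt-Rnr2). The mRNAs then spanned 1.56 to 2.29 in the block and 1.67 to 2.77 outside it. The rRNA values are what remained after rRNA depletion, so they depend on that step. mt-Rnr1, the 12S rRNA of the small subunit (chrM:70-1024, plus strand), was at 1476 FPKM in 1K, 729.3 FPKM in 2K, 676.0 FPKM in 3K and 1144 FPKM in R. It was at 1222 FPKM in 1KR, 1293 FPKM in 2KR, 3152 FPKM in 3KR and 1433 FPKM in RR, and at 1201 FPKM in C. The libraries 2K and 3K were the lowest, 3KR was the highest and the other 6 lay within 1.29 times of each other.

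mt-Rnr2, the 16S rRNA of the large subunit (chrM:1094-2675, plus strand), was likewise lowest in 2K and 3K and highest in 3KR. It was at 565.1 FPKM in 1K, 186.9 FPKM in 2K, 187.3 FPKM in 3K and 439.5 FPKM in R, at 385.7 FPKM in 1KR, 490.6 FPKM in 2KR, 1141 FPKM in 3KR and 496.3 FPKM in RR, and at 436.8 FPKM in C. The same 6 libraries lay within 1.46 times of each other. In 2K over R, mt-Rnr2 was at least 2-fold lower (-1.23) and mt-Rnr1 differed by -0.65, beside 28.9% of all genes at least 2-fold apart. In 3K over R the differences were -1.23 for mt-Rnr2 and -0.76 for mt-Rnr1, beside 25.1%. In 3KR over RR both were at least 2-fold higher, by 1.14 for mt-Rnr1 and 1.20 for mt-Rnr2, beside 21.1% of all genes, and in 3KR over 3K by 2.22 for mt-Rnr1 and 2.60 for mt-Rnr2, beside 25.1%. In 2KR over 2K they were higher by 0.83 for mt-Rnr1 and 1.39 for mt-Rnr2, beside 32.5% of all genes at least 2-fold apart. In 1K over R both were higher by 0.36 to 0.37 as deposited but lower after rescaling to other rows, with a median of -0.14, and relative to all genes the median was 0.33 as deposited and 0.30 after that rescaling. Relative to all genes the rRNA median was -0.96 in 2K over R, 1.14 in 3KR over RR and 0.24 in RR over C. In R and RR over C, 1KR and 2KR over RR, RR over R and 1KR over 1K, none (0 of 2) was at least 2-fold apart. Of all genes, 5.99% (1KR over RR) to 14.4% (1KR over 1K) were that far apart in these pairs.

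The 3 libraries at the ends of the rRNA range were also at the ends for nuclear small RNAs. The share of small RNAs was lowest in 2K (14.1%) and 3K (15.4%) and highest in 3KR (49.7%). The small nuclear RNA Rn7sk, which restrains transcription elongation, was likewise lowest in 2K (31663 FPKM) and 3K (35522 FPKM) and highest in 3KR (94227 FPKM). Their part in the rRNA values was not tested. Within a library, summed rRNA over summed mRNA was 0.0688 in 1K, 0.0532 in 2K, 0.0507 in 3K and 0.0853 in R, and 0.0861 in 1KR, 0.0882 in 2KR, 0.177 in 3KR and 0.0936 in RR, against 0.1003 in C. The ratio of mt-Rnr1 to mt-Rnr2 was 3.90 in 2K and 3.61 in 3K, and between 2.60 (R) and 3.17 (1KR) in the other 7.

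**Figure D3:**
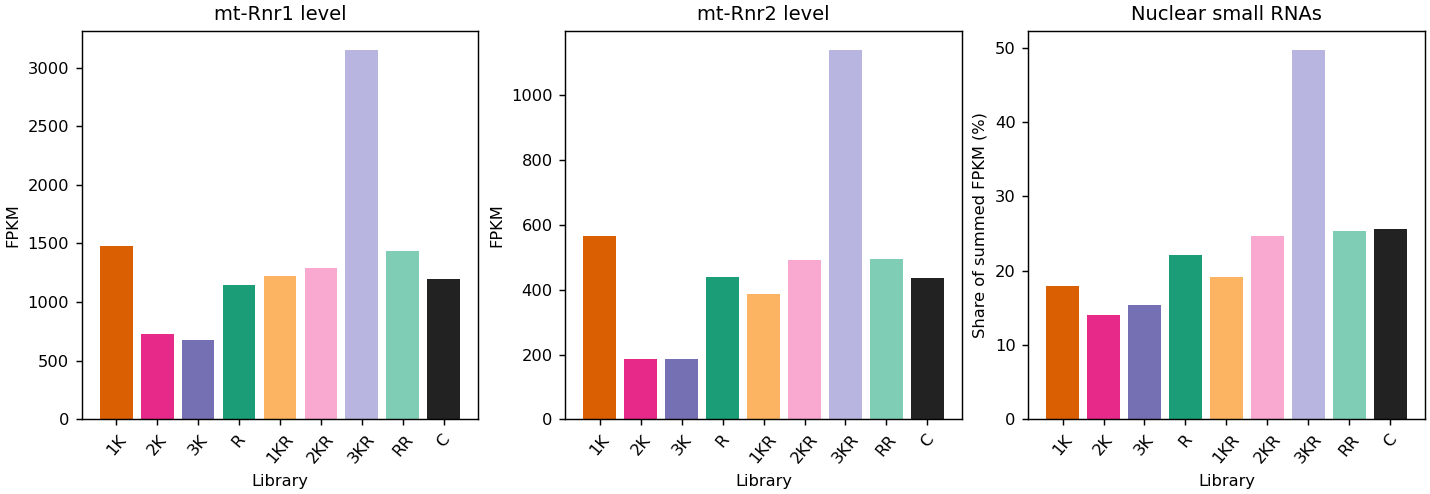
FPKM of mt-Rnr1 and mt-Rnr2 and the share of summed FPKM held by small RNAs other than mitochondrial ones, 1 bar per library. All 3 panels are lowest in 2K and 3K and highest in 3KR, where small RNAs reach 49.7%.

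Shares within the 13 mRNAs do not depend on how libraries are scaled against each other. They include the uncertain levels of the 6 block rows. mt-Co1 held 40.4% in 1K, 42.8% in 2K, 38.0% in 3K and 39.8% in R, and 50.1% in 1KR, 39.9% in 2KR, 37.3% in 3KR and 44.0% in RR, against 37.3% in C. The 1KR library thus had the highest share of mt-Co1 and the lowest of mt-Nd5 (4.27%) and mt-Nd6 (3.48%). mt-Nd6 held 9.04% in C, the highest of the 9, followed by 7.73% in 3KR, and 5.34% to 7.03% in the other DSS libraries except 1KR. mt-Nd1 ranged from 13.5% (1KR) to 18.4% (3KR) and mt-Cytb from 15.7% (3KR) to 19.3% (R). As listed, the 6 genes of the block held at most 0.433% each, and those levels are uncertain. Of the 7 mRNAs outside the block, mt-Co1 held 37.7% (C) to 50.7% (1KR).

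**Figure D4:**
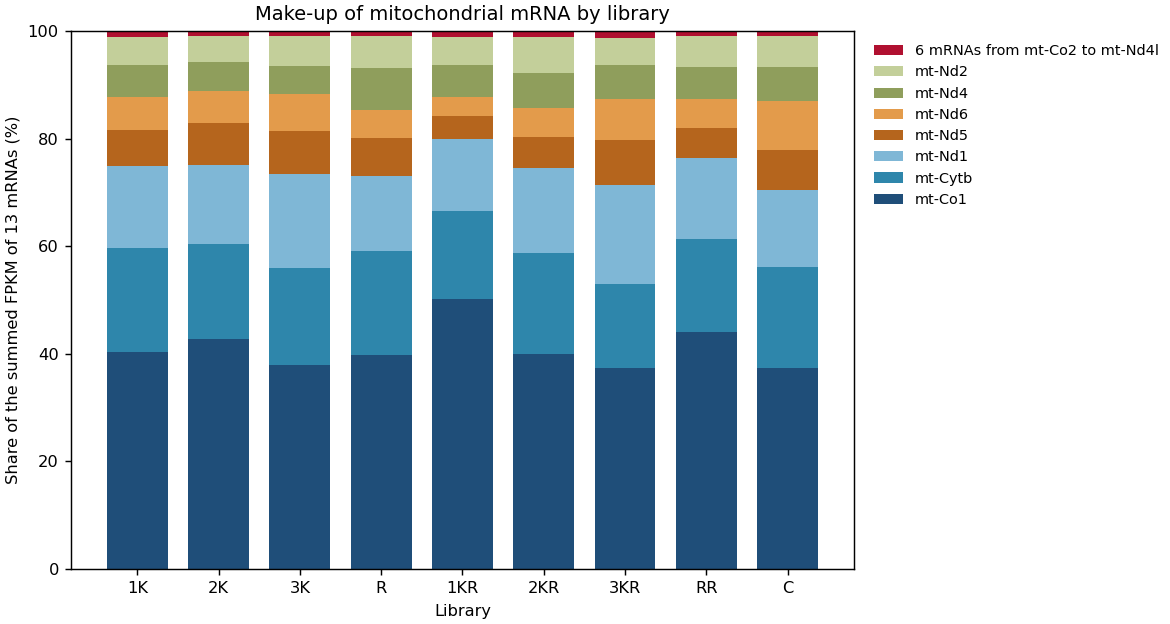
Share of each mRNA in the summed FPKM of the 13 mitochondrial mRNAs as listed, with the uncertain block rows included, 1 stacked bar per library. mt-Co1 reaches 50.1% in 1KR, where mt-Nd5 and mt-Nd6 hold their lowest shares, and mt-Nd6 holds its highest share, 9.04%, in C.

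mt-Nd6 is the only mRNA encoded on the minus strand and overlaps mt-Nd5 on the plus strand by 14 bases. The libraries were made with a stranded kit, but whether counting used the strand was not given in the sources used here, so RNA of mt-Nd6 and RNA antisense to it cannot be told apart. The level of mt-Nd6 over that of mt-Nd5 was 0.904 in 1K, 0.762 in 2K, 0.889 in 3K and 0.764 in R, and 0.814 in 1KR, 0.919 in 2KR, 0.935 in 3KR and 0.932 in RR, against 1.20 in C. All 8 libraries with DSS were below 1, and C alone was above it. Over mt-Cytb, the next mRNA on the plus strand, mt-Nd6 was at 0.212 (1KR) to 0.491 (3KR), and C, at 0.481, did not stand apart from 3KR.

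The overlapping pairs of the plus strand overlap by 43 bases for mt-Atp8 and mt-Atp6 and by 7 for mt-Nd4l and mt-Nd4. mt-Atp8 over mt-Atp6 was between 0.629 (R) and 0.990 (3K) in 8 libraries and 1.46 in 3KR. mt-Nd4l was at 0.0107 to 0.0161 times the level of mt-Nd4, the pair in which only mt-Nd4l is copied in full on chromosome 1. Of the mRNA genes, 3 (mt-Co3, mt-Nd4 and mt-Cytb) end in a single T in place of a full stop codon, which the poly(A) tail completes.

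Mitochondrial and nuclear subunits of the same complexes did not keep a fixed ratio. Over 71 nuclear subunit genes of complexes I, III, IV and V, the ratio of the geometric mean of the 13 mitochondrial mRNAs to that of the nuclear ones was 1.58 in 1K, 1.26 in 2K, 1.56 in 3K and 1.70 in R on the log2 scale. It was 0.64 in 1KR, 1.12 in 2KR, 1.85 in 3KR and 0.99 in RR, and 1.41 in C. By geometric means the lowest values were those of 1KR, RR and 2KR and the highest that of 3KR. By medians of subunits the same 3 were lowest, and R (3.59) was above 3KR (3.49). The geometric mean is lowered by the block, and over the 7 mRNAs outside it the values ran from 3.30 (1KR) to 4.72 (3KR).

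In RR over C the nuclear subunits were all higher as deposited (71 of 71, and 68 after rescaling to other rows), with a median of 0.66, whereas the mitochondrial median was 0.24, and the ratio was lower by 0.42 in RR. At least 2-fold higher were 5 of 71 as deposited, beside 12.5% of all genes at least 2-fold apart. After median-of-ratios scaling 1 was, and after rescaling to other rows 0 were. In 3KR over RR, 64 of 71 nuclear subunits were lower (median -0.45) and 10 of 13 mitochondrial mRNAs higher (median 0.31), and the ratio was higher by 0.86. At least 2-fold lower were 9 of 71 as deposited, beside 21.1% of all genes, and 5 after either rescaling. In 1K over R, all 71 nuclear subunits were higher as deposited (median 0.81), with 15 at least 2-fold apart, beside 15.8% of all genes. After median-of-ratios scaling 6 were at least 2-fold apart, and after rescaling to other rows 0 were. The 13 mRNAs were also higher (median 0.70), and the ratio differed by -0.12. In 1KR over RR it differed by -0.36, in 2K over R by -0.44, in R over C by 0.28 and in RR over R by -0.71. In 3KR over RR, 9 of 10 epithelial markers were lower and their summed FPKM was 5460 in 3KR and 10931 in RR. In the same pair 8 of 10 smooth muscle markers were higher, with a summed FPKM of 1773 in 3KR and 856.3 in RR. The part of both lists in these values was not tested.

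By complex, the direction was alike in the 4 complexes in 3KR over RR, at 0.72 for complex I, 0.71 for III, 0.51 for IV and 1.78 for V. The last rests on mt-Atp8 and mt-Atp6 only, both in the block. In RR over C the values were -0.51 for complex I, -0.52 for III, -0.14 for IV and -0.41 for V. Complex II, succinate dehydrogenase, has no mitochondrial subunit. Of its 4 nuclear genes 3 were at least 2-fold higher in RR over C (median 1.12, against 12.5% of all genes), and 2 after median-of-ratios scaling and 1 after rescaling to other rows. In 3KR over RR 3 were at least 2-fold lower (median -1.15, against 21.1% of all genes), and 2 after either rescaling.

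**Figure D5:**
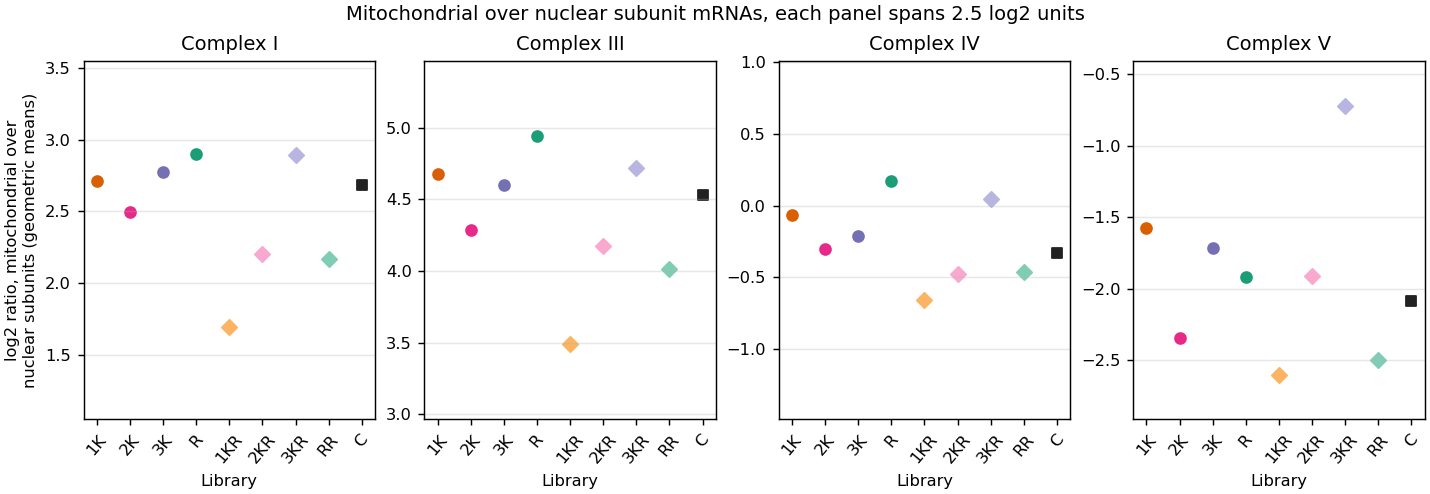
Log2 ratio of the geometric mean of mitochondrial subunits to that of nuclear subunits of complexes I, III, IV and V, 1 point per library. In complexes I, III and IV the libraries 1KR, 2KR and RR are the 3 lowest and R and 3KR the 2 highest, and in complex V 3KR lies at -0.72, above all others.

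Genes that make and process mitochondrial RNA were mostly within 2-fold, as were most of all genes. Mitochondrial transcription had 8 measured genes, such as Polrmt (the RNA polymerase) and Tfam (a DNA-packaging transcription factor). Of these, 0 were at least 2-fold apart as deposited in the 8 comparisons of a diet group with R or RR and of R and RR with C. Of all genes, 5.99% (1KR over RR) to 28.9% (2K over R) were that far apart in these pairs. Medians of the transcription genes lay between -0.10 (R over C) and 0.15 (RR over C). Of 34 genes of RNA processing and stability, 1 was at least 2-fold higher in 1K over R, Slirp, an RNA-stabilising protein, at 41.1 FPKM in 1K and 20.2 FPKM in R, and 0 were higher by that much after either rescaling, beside 15.8% of all genes as deposited. A single gene each was at least 2-fold apart in R over C (Fastkd3, at 7.50 FPKM in R and 2.86 FPKM in C, beside 7.65% of all genes), in 2K over R (Angel2, at 12.3 FPKM in 2K and 26.1 FPKM in R, beside 28.9%) and in 2KR over RR (Pnpt1, at 13.3 FPKM in 2KR and 6.37 FPKM in RR, beside 6.35%). After rescaling to other rows 4 were at least 2-fold lower in 2K over R. In 3K over R, 3 were at least 2-fold lower as deposited, beside 25.1% of all genes, and 6 after rescaling to other rows, among them Fastkd5, which processes precursors without flanking tRNAs, at 0.937 FPKM in 3K and 4.58 FPKM in R. The replication list had 2 of 8 at least 2-fold lower in 2K over R, beside 28.9% of all genes at least 2-fold apart, and 3 of 8 in 3K over R, beside 25.1%. Mgme1, a mitochondrial exonuclease, was at 0.879 FPKM in 2K and 1.06 FPKM in 3K, against 3.11 FPKM in R. The acinar, stomach and liver transcripts of 2K and the acinar transcripts of 3K are given above. Their part in these differences from R was not tested.

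Among 8 biogenesis regulators, Ppargc1a, a transcriptional coactivator, was at 48.9 FPKM in 1K and 6.12 FPKM in 3K, against 19.95 FPKM in R. It was at 8.87 FPKM in 3KR against 29.4 FPKM in RR, and RR was above C, at 11.4 FPKM. In 2K over R the 1 member at least 2-fold apart was Esrrg, a nuclear receptor, at 5.64 FPKM in 2K and 0.883 FPKM in R, beside 28.9% of all genes. The part of the acinar, stomach and liver transcripts of 2K, and of the acinar transcripts of 3K, in these regulators was not tested. In 3KR over RR, 3 of the 8 were at least 2-fold lower, beside 21.1% of all genes, the others being Esrra (53.6 against 131.0 FPKM) and Esrrg (0.221 against 2.71 FPKM), both nuclear receptors that bind Ppargc1a. In that pair 10 of 13 mitochondrial mRNAs were higher, as given above.

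Of 78 proteins of the mitochondrial ribosome, 3 were at least 2-fold higher in 1K over R as deposited (median 0.32, beside 15.8% of all genes), led by Mrpl18 at 40.2 FPKM in 1K and 17.5 FPKM in R, and 0 after either rescaling. In 2K over R 3 were at least 2-fold lower (beside 28.9% of all genes), and 10 after rescaling to other rows, while the median was 0.33 as deposited and -0.16 after that rescaling. In 3K over R 1 was at least 2-fold lower (beside 25.1%), and 4 after rescaling to other rows, with medians of 0.21 and -0.06. Their medians were 0.28 in RR over C and -0.22 in 3KR over RR, with 0 at least 2-fold apart (beside 12.5% and 21.1% of all genes). Of 19 mitochondrial aminoacyl-tRNA synthetases, 1 was at least 2-fold higher in 3KR over RR, Lars2, which charges the leucine tRNAs, at 76.3 FPKM in 3KR and 23.1 FPKM in RR (beside 21.1% of all genes), and 2 were lower in 3K over R (beside 25.1%). Of 8 mitochondrial chaperones and proteases, 1 was at least 2-fold higher in 2K over R, Clpx, a protease subunit, at 44.2 FPKM in 2K and 14.1 FPKM in R (beside 28.9% of all genes). For these lists too, the part of acinar, stomach and liver transcripts in 2K, and of acinar transcripts in 3K, was not tested.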

How the data were processed

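Total RNA of mouse intestinal tract was depleted of rRNA and made into stranded libraries without mRNA selection beads, per the labels' protocols. Reads were processed with HISAT2 and Cuffdiff 2.2.1 on GRCm38, per the submitters' processing notes. The authors deposited FPKM for 55468 genes in 9 libraries, and only FPKM were used here. Gene types, coordinates and transcripts come from GENCODE M21, which lacks 327 of these genes. The annotation the authors used was not given in the sources used here.

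Values were used as deposited, on the log2 scale with a pseudocount of 0.5, in 12 comparisons (8 main, 4 between days) of 1 library with 1 other. A row entered a comparison when either value reached 1 FPKM. Fragment numbers were estimated from the steps between low values of genes with 1 transcript, with 61.8 to 69.2% of those values within 0.15 of a whole fragment, and carry no interval. Shared stretches were found by exact match of 50 bases, and copies aligned with Biopython 1.88. Work was done in Python 3.11.15. Counting and scaling were tested on simulated data.

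All 15 mRNA and rRNA members are described, and up to 3 of the members with large differences are named from 12 nuclear lists, with 7 marker lists given as sums. The members and lists were chosen with earlier results of these data known. Other settings tried were pseudocounts of 1 and 0.1, floors of 0 and 5 FPKM, and 2 rescalings, one of them by median ratios over the 7809 genes that reached 5 FPKM throughout. A linear fit over diet factors was not run here.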

Additional observations from a re-analysis of the deposited data

Results flagged for a closer look

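Each diet group was compared with the normal diet at both days, and 6 rows had differences of opposite sign at day 33 and day 28 that were over 2-fold apart, 3 of 15 for the methionine diet, 0 of 15 for the diet without tryptophan and niacin and 3 of 15 for the triple-deficient diet. Of all genes tested, 10.6%, 20.7% and 19.4% met the same rule for these diets in that order. With 1 library per condition the difference between days was not tested.

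For the methionine diet, mt-Nd6 was at -0.76 in 1KR over RR and 0.85 in 1K over R, a day 28 minus day 33 difference of 1.61. mt-Nd5 was at -0.56 and 0.61 (1.17) and mt-Nd1 at -0.30 and 0.81 (1.11). After median-of-ratios scaling mt-Nd1 was under 2-fold apart (0.95), and after rescaling to other rows mt-Nd1 (0.75) and mt-Nd5 (0.81) were, while mt-Nd6 and the 3 rows of the triple-deficient diet met the rule under both. For the triple-deficient diet, mt-Rnr2 was at 1.20 in 3KR over RR and -1.23 in 3K over R, a day 28 minus day 33 difference of -2.43, mt-Rnr1 at 1.14 and -0.76 (-1.89) and mt-Nd4 at 0.31 and -0.70 (-1.01). The 3KR library also had the highest share of small RNAs (49.7%) and the lowest estimated depth, and 3K held 7.39% acinar transcripts. Their part in these differences was not tested.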

How the results depend on the processing

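Differences, counts and shares were compared at 1.5 times, on the FPKM scale for medians. Floors of 0 and 5 FPKM and pseudocounts of 0.1 and 1 moved none of the recomputed differences and counts by that much. Differences between libraries and shares also stayed within it where recomputed by medians, without the overlapping pairs or without the block. The block was chosen after seeing the data. Counts of mRNAs at least 2-fold apart do depend on it. As deposited, the 1 mRNA counted was mt-Atp8 in 1K over R, 3KR over RR and 3KR over 3K, and mt-Atp6 in 2KR over 2K. Both lie in the block, and no mRNA outside it reached 2-fold in these pairs. The mitochondrial over nuclear level itself also moved (3KR is at 1.85 by geometric means, 3.49 by medians and 4.72 outside the block, on the log2 scale). No median moved so far under either rescaling, and counts of rows at least 2-fold apart did. The rescaled counts below are not set against all genes, whose share after rescaling is not given. After median-of-ratios scaling, mRNAs at least 2-fold apart numbered 0 in 1K over R, 0 in 2KR over 2K and 2 in 3KR over 3K, and nuclear subunits 1 in RR over C, 6 in 1K over R, 5 in 3KR over RR, 10 in RR over R and 3 in 2KR over 2K. After rescaling to rows that are neither small RNAs nor mitochondrial, mRNAs numbered 0 in 1K over R, 1 in 2K over R, 3 in 2KR over 2K and 4 in 3KR over 3K, and rRNAs 2 in 2K over R, 2 in 3K over R and 2 in 2KR over 2K. Nuclear subunits then numbered 0 in RR over C, 0 in 1K over R, 0 in 2K over R, 5 in 3KR over RR, 8 in RR over R, 20 in 2KR over 2K and 7 in 3KR over 3K. The mRNA share of 3KR became 4.99% without small RNAs. The cause was not tested. The sign of the mRNA median changed in RR over C and RR over R, that of the rRNA median in 1K over R and RR over C, and that of the nuclear median in 2K over R and 3K over R, all under the second rescaling. The nuclear median of 3K over R also changed sign under median-of-ratios scaling. No alternatives were run for tRNAs, at 0 in nearly all libraries. No paired analysis was possible because each condition has 1 library. Depth limits mt-Nd3, with about 30.3 fragments in 3KR.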
